A study of Mus musculus with 2 samples.

Results

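The genes described here encode the core machinery of DNA replication, 42 protein-coding genes out of 21318 on mouse chromosomes 1 to 19 and X whose strand was known. They were named by function and not by any measured value, but with earlier results of these data known. They encode the origin recognition complex and the factors that load the helicase, the MCM helicase, its activators, primase and the polymerases. The rest encode the sliding clamp with its loader, and the proteins that coat single strands and join fragments. The measurement was chromatin immunoprecipitation with sequencing (ChIP-seq) of TCF12 in CH12.LX cells, an immortalized mouse B-cell lymphoma line of strain B10.H-2aH-4bp/Wts, with no treatment named in the labels. There was 1 group of 2 biological replicates of this 1 line, with no second genotype, treatment or time, so no test between conditions was possible and the values below are descriptions. For each gene, peak summits were taken from 10 kb upstream of its 5′ end to its 3′ end on mm10, and a summit within 1 kb of the 5′ end was called a promoter peak.

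TCF12 (HEB) belongs to the E proteins, transcription factors of lymphocyte development whose dimers bind the E-box, CANNTG, through a basic helix-loop-helix fold. In G1 the origin recognition complex, CDC6 and CDT1 load the MCM2-7 ring onto DNA as an inactive helicase. In S phase CDC45 and the GINS complex turn it into the active helicase, and polymerase alpha with primase, delta and epsilon copy the strands with the PCNA clamp. Many of these genes are known targets of E2F factors, which raise their transcription as cells enter S phase.

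Peaks came from the authors' optimal list, 35848 peaks that passed their threshold on a measure of reproducibility (the irreproducible discovery rate, IDR). This list was derived from both replicates' lists and the pooled list. A peak in it was therefore not taken as reproduced in each replicate. Signal is the authors' caller's value for each peak, in units whose scaling was not given in the sources used here, and replicate values are the signal of the matching peak in each replicate's own list of 300000 peaks. The read depth of the libraries was unknown, so a missing peak means only that none was listed. Peaks do not measure expression, and the labelled cell type was not checked against markers here.

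A TCF12 promoter peak lay at 36 of the 42 replication genes (85.7%, 95% Wilson interval 72.2 to 93.3, counting error only), against 40.6% of all genes. At least 1 peak lay anywhere in the window of 41 of the 42, against 57.2% of all genes, and the exception was Gins2. Peaks further than 1 kb from the 5′ end were near the background: 17 of the 42 genes (40.5%) had one, against 35.8% of all genes. With peaks of an IDR score of at least 830 alone, 11 genes (26.2%) had one, against 28.5% of all genes. The share of the replication genes thus lay above that of all genes for promoter peaks and near it for the rest of the windows.

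**Figure D1:**
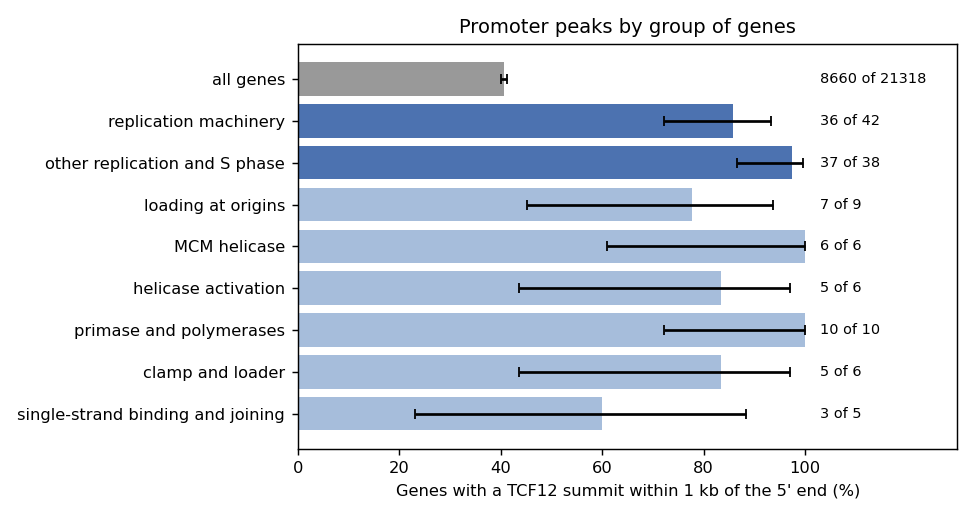
Percentage of genes with a TCF12 summit within 1 kb of the 5′ end, for all genes, the 42 replication machinery genes, 38 other replication and S phase genes and the 6 role groups. Whiskers are 95% Wilson intervals and the counts stand at the right. All 6 MCM genes and all 10 primase and polymerase genes had a promoter peak, and 3 of 5 genes of single-strand binding and joining did.

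The peaks were common at these promoters but not unusually strong. The strongest promoter signal of the 36 genes had a median of 60.2 (quartiles 46.0 and 75.3, range 16.3 to 157), and that of all 8660 genes with a promoter peak was 54.7 (quartiles 36.8 and 80.4). Of the 36 genes, 9 lay above the upper quartile of all genes and 3 below the lower one. None passed a signal of 200, but only 1.18% of all genes with a promoter peak did, too small a share to read from 36 genes. All genes ranged from 5.60 to 496, and the 36, being part of them, could not range wider.

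**Figure D2:**
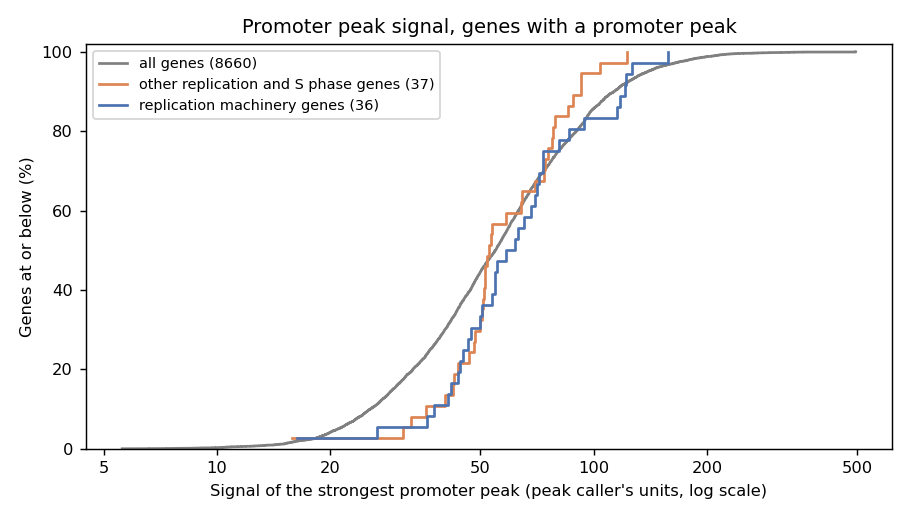
Cumulative percentage of genes against the signal of the strongest promoter peak (log axis, peak caller's units), for all 8660 genes with a promoter peak, the 36 replication machinery genes and 37 other replication and S phase genes. The curves of both replication sets run to the right of all genes at low signal and cross it further up, and both sets end below 200.

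Promoter sequences are shown for 6 of the 12 genes with the strongest promoter peaks: those with a main E-box of E proteins (CAGCTG or CACCTG, on either strand), then an E2F match, then another listed motif within 50 bp of the summit. The genome used for sequence was mm9, so these come from the authors' mm9 list and the mm9 reference. Capitals mark the match and the bases on either side are context. All are written 5′ to 3′ on the plus strand.
Pold1 (chr7:51803320-51803349, intron of Pold1, CACCTG 43 bp from the summit): ctgccagcttcaCACCTGgctcctcccctg
Pola2 (chr19:5964235-5964264, between genes, CAGCTG 26 bp from the summit): gtcctcccactgCAGCTGcgcagaacgcgc
Cdc6 (chr11:98769163-98769192, exon of Cdc6, CAGCTG 25 bp from the summit): gagttgactttgCAGCTGctgtagaatttg
Cdc6 (chr11:98769144-98769173, exon of Cdc6, E2F match 6 bp from the summit): agtagagcggcTTTGGCGCgagttgacttt
Mcm5 (chr8:77633244-77633273, between genes, E2F match 19 bp from the summit): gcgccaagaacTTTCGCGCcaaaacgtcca
Rfc4 (chr16:23127832-23127861, between genes, ETS match 25 bp from the summit): gcaataacgtcACTTCCGGcgcgcgggtgc
Orc5 (chr5:22056206-22056235, exon of Orc5, CREB match 3 bp from the summit): agcgcggtcgagTGACGTcagggagccgcg
The Cdc6 runs overlap, with the E2F match on the upstream side of the E-box. The Mcm5 match overlaps a second on the other strand, since TTTCGCGCCAAA reads as an E2F match in both directions. A match is a run of letters in the window and not a measured binding site.

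In Mcm5 and Rfc4 the summit lay just upstream of the gene, and the bases before the gene on mm10 show how the listed motifs sit together there. These were taken from the RefSeq promoter table (GRCm38.p6), on the strand of the gene, with matches to the E2F, NFY, CREB, longer ETS (CCGGAAGT) and YY1 motifs in capitals. The words searched are given with the counts of each motif, and the shorter ETS core and GGGCGG are not marked.
Mcm5 (chr8:75109259-75109467, plus strand): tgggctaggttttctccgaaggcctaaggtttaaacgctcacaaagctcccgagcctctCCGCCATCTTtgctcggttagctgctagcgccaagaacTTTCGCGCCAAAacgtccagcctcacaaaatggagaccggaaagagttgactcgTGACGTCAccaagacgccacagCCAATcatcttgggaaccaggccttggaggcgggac
Rfc4 (chr16:23127731-23127980, minus strand): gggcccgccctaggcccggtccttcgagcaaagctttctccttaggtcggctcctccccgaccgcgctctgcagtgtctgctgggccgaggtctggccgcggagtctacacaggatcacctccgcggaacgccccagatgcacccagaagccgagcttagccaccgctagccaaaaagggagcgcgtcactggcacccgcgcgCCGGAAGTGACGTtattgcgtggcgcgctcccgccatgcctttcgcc
In Mcm5 the order of the marked matches from the far end towards the gene was YY1, E2F, CREB and CCAAT box, with an unmarked ETS core CCGGAA between E2F and CREB. In Rfc4 the ETS match CCGGAAGT and the CREB match TGACGT overlapped by 1 base. Neither run held CAGCTG or CACCTG.

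Of the 9 genes of helicase loading, 7 had a promoter peak, with a median signal of 73.3. Orc5, a subunit of the origin recognition complex, had 1 summit 51 bp upstream of its 5′ end with a signal of 121, and 80 in replicate 1 and 40.9 in replicate 2. Orc3, another subunit, had a signal of 117 at +37 bp (71.8 and 42.3 in replicates 1 and 2). That summit also lay within 1 kb of the 5′ end of Rars2, so it cannot be assigned to 1 gene of the pair. Cdt1, which brings the MCM ring to the origin, had a signal of 94.5 at 157 bp upstream (58.4 and 33.6). Cdc6, its partner in loading, had 73.3 at +129 bp (43.2 and 31.2). In these genes replicate 1 gave the higher value each time, as it did in 84.1% of all genes with a promoter peak matched in both replicates.

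The other loading genes with a promoter peak were Orc6 (70.8, shared with Vps35), Orc2 (63.0) and Gmnn (53.8). Gmnn encodes geminin, the inhibitor of CDT1, and had a further summit at +455 bp with a signal of 37.9. Cdc6 had a weak further peak at +2.11 kb with a signal of 17.1. No loading gene with a promoter peak fell below the lower quartile of all genes.

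Orc1 and Orc4 had no promoter peak by the gene's outermost 5′ end, but each had a peak near a start that RefSeq lists further inside the gene. Orc1 encodes the large ATPase subunit of the origin recognition complex. Its summit lay at +3736 bp with a signal of 78.6 (62.9 and 24.1 in replicates 1 and 2), 13 bp before an inner RefSeq start and 105 bp from the 5′ end of Prpf38a. Orc4 had a summit at +3234 bp with a signal of 31.4 (20.6 and 12.3), 401 bp before an inner start and 169 bp from the 5′ end of Mbd5. On the mm9 annotation the Orc1 summit lay 4 bp from the annotated 5′ end, and the E2F match there is shown because Orc1 was counted as lacking a promoter peak on mm10. It was chosen after its values were seen.
Orc1 (mm9 chr4:108252021-108252050, exon of Orc1, E2F match 4 bp from the summit): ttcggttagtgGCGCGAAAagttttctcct

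All 6 genes of the MCM helicase had a promoter peak, with a median signal of 55.1. Mcm4 was the strongest, with a summit 494 bp upstream and a signal of 122 (83.0 and 37.4 in replicates 1 and 2). The summit lay within 1 kb of the 5′ end of Prkdc, the neighbouring gene for a DNA repair kinase. Mcm5 had 3 promoter summits: 71.4 at 119 bp upstream (50 and 26.7), 71.2 at 736 bp upstream and 49.6 at +81 bp. The other MCM genes lay close together, with 55.5 for Mcm3, 54.7 for Mcm6, 50.4 for Mcm2 and 46.3 for Mcm7 (shared with Ap4m1).

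More than 1 promoter summit was found at 4 of the 6 MCM genes (Mcm2, Mcm5, Mcm6 and Mcm7). Over all 36 genes this was 12 (33.3%), against 31.6% of all genes with a promoter peak. Mcm2 also had a summit at +12.2 kb in its gene body with a signal of 44.5 (31.8 and 12.1). Mcm6 had one at +2.02 kb with 20.9.

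Of the 6 helicase activation genes, 5 had a promoter peak, and their median of 45.0 was below that of all genes. Cdc45, which encodes a subunit of the active helicase, stood highest with 85.8 at +368 bp (56.4 and 31.5 in replicates 1 and 2), a summit shared with Ufd1. Gins3 had 61.7, and Mcm10, which helps the helicase to start, had 45.0. Gins1 had 36.1 at its own promoter and a stronger peak 4878 bp upstream with 73.6 (53.9 and 21.0), which lay 101 bp from the 5′ end of Abhd12.

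Gins4 and Gins2 were the weak cases of the GINS complex. Gins4 had a signal of 26.6 at 160 bp upstream, with 5.15 in replicate 1 and 23.5 in replicate 2. Its IDR score was 703 on a scale that ends at 1000, and it was missing from the authors' conservative list. Gins2 was the 1 gene with no optimal peak anywhere in its window. The conservative list held a peak 34 bp from its 5′ end with a signal of 31.7 (28.6 and 8.29), so the optimal and conservative lists disagreed on both genes.

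All 10 genes of primase and the polymerases had a promoter peak, with a median of 66.7. Pold1, the catalytic subunit of polymerase delta, had the strongest promoter signal of all replication genes, 157 (110 in replicate 1 and 56.7 in replicate 2). That summit lay at +893 bp, inside the first part of the gene and just within the 1 kb limit. A second summit at +19 bp had a signal of 46.7. With the limit at 500 bp, Pold1 fell from the first place to this lower value.

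Pold2, the accessory subunit of the same polymerase, had 115 at 163 bp upstream (69.1 and 52.4). Pola2, the regulatory subunit of polymerase alpha, had 73.4 at +38 bp (48.6 and 24.1). Pola2 was also near the limit on the other side, with a weak upstream summit at 1166 bp and a signal of 20.6. Pold3 had 70.0, Pole4 had 68.1 and Prim1, the catalytic subunit of primase, had 65.3.

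The lower signals were at Pole2 (54.7, shared with Klhdc1), Pole (47.3, shared with Pxmp2), Prim2 (41.0) and Pole3 (16.3). Pole encodes the catalytic subunit of polymerase epsilon and Pole3 a small histone-fold subunit. The Pole3 summit had the lowest promoter signal of all 36 genes, 11.4 in replicate 1 and 4.46 in replicate 2, with an IDR score of 544. It lay between Pole3 and 4933430I17Rik and was not in the conservative list.

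Of the 6 genes of the clamp and its loader, 5 had a promoter peak, with a median of 49.8. Rfc4, a small subunit of the loader, had 126 at 33 bp upstream, the second strongest of all 36 genes. Its replicates were level at 60.3 and 63.0, unlike most of the strong genes. Rfc5 had 80.9 at 18 bp upstream (59.0 and 31.6), Rfc3 had 49.8 and Rfc2 had 41.8.

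Pcna, the clamp itself, stood low. Its summits at +467 bp and 18 bp upstream had signals of 37.6 and 37.2, and the first was shared with Cds2. The first gave 19.6 in replicate 1 and 20.5 in replicate 2, and the second 36.6 and 15.7. Rfc1, the large subunit of the loader, had no promoter peak by its outermost 5′ end. Its summit at +2853 bp had a signal of 36.4 (22.3 and 15.5) and lay 125 bp before an inner RefSeq start, and a second lay at +44.8 kb with 28.2.

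Of the 5 genes of single-strand binding and joining, 3 had a promoter peak, and all 3 peaks were shared with a neighbour. Rpa1, the large subunit of replication protein A, had 58.6 (47.2 and 13.5, shared with Smyd4). Fen1, the flap endonuclease of the lagging strand, had 44.2 (21.6 and 25.7, shared with Tmem258). Rpa3 had 43.5 (26.8 and 18.8, shared with Umad1). Their signals all lay between the quartiles of all genes.

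Lig1 and Rpa2 had no promoter peak. Lig1, the ligase that joins lagging-strand fragments, lay just outside the limit with a summit at +1240 bp and a signal of 31.5 (21.2 and 17.4). That summit was 411 bp before an inner RefSeq start and 306 bp from the 5′ end of Zswim9. Rpa2 had 1 optimal peak, at +8615 bp with 28.1 (9.51 and 15.5). The conservative list also held a peak 6 bp from its 5′ end, with a signal of 24.1 (25.5 and 14.6).

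The 6 genes without a promoter peak thus fell into 2 sorts. With every start in the RefSeq promoter table in place of the outermost 5′ end, 40 of the 42 had a promoter peak, against 43.3% of all genes, and only Gins2 and Rpa2 were left. With a peak from the optimal or the conservative list and the same starts, all 42 had one, against 45.7% of all genes.

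**Figure D3:**
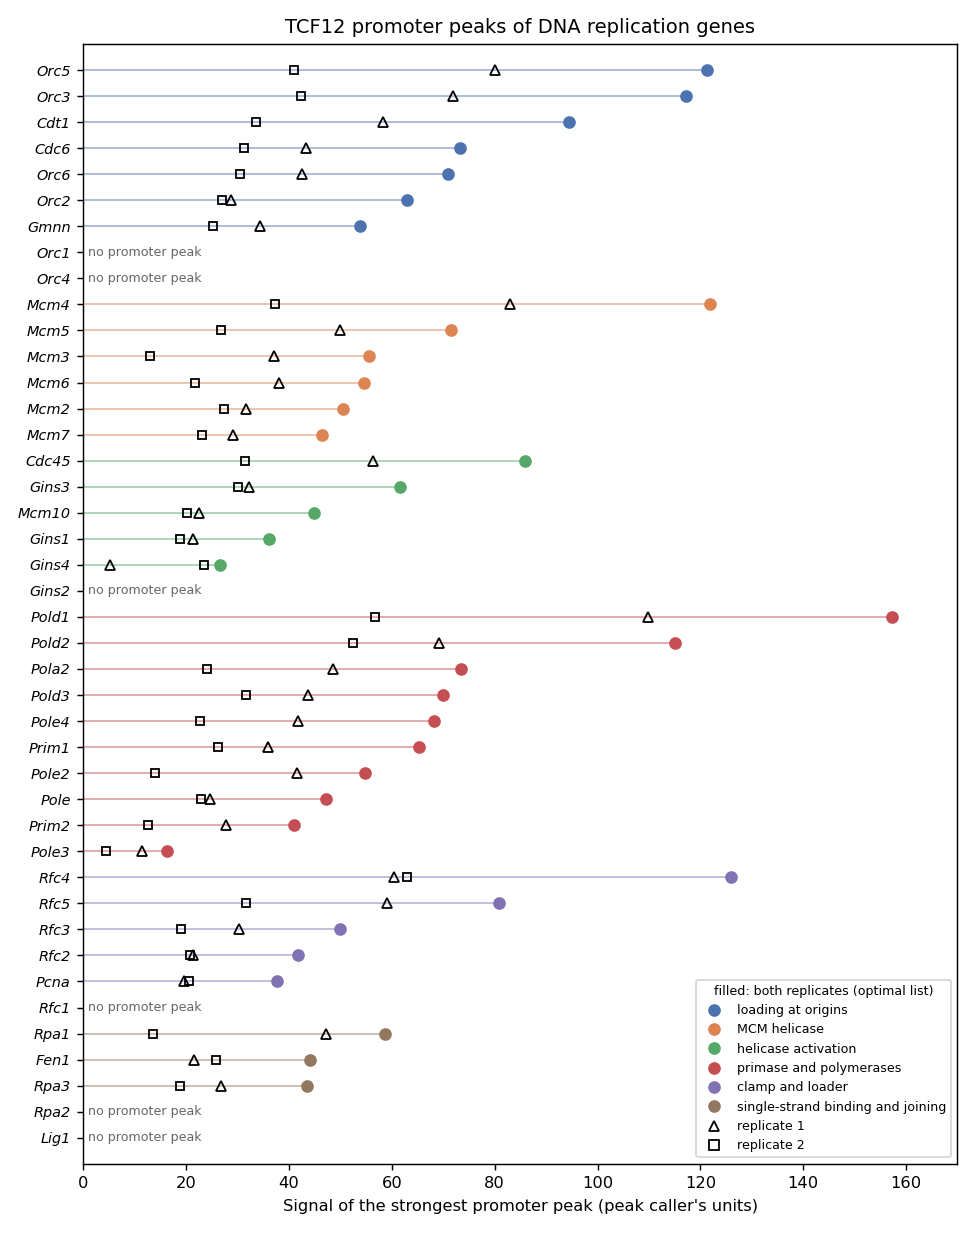
Signal of the strongest promoter peak (peak caller's units) for each of the 42 genes, grouped by role. Filled circles are the optimal list, triangles replicate 1 and squares replicate 2. Pold1 stands highest at 157 and Pole3 lowest at 16.3. Replicate 1 lies above replicate 2 in 32 of the 36 genes with a peak (88.9%), near the 84.1% of 8582 genes.

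Both replicates' lists of 300000 peaks held an overlapping peak at all 36 promoter peaks, and at 8582 of 8660 over all genes. An overlap of 1 bp was enough, so this count does not set the replication genes apart. The ratio of replicate 1 to replicate 2 had a median of 1.41 (range 0.220 to 3.50), and 1.53 over 8582 genes. At their strongest promoter peak, Rfc4, Pcna, Fen1 and Gins4 were the 4 genes with a ratio below 1, and Rpa1 had the highest. The other Pcna summit, of nearly equal signal, went the other way (36.6 in replicate 1 and 15.7 in replicate 2). Each ratio used the replicate peak with the nearest summit. For Rpa1 this was a peak of 13.5 in replicate 2, whose strongest Rpa1 promoter peak had 21.7. Spearman's rho between the replicates was 0.723 over the 36 genes and 0.706 over the 8582, as a description, since all points come from the same pair of libraries. Because the scaling of each list was not given, the ratio cannot be read as a difference in binding. An IDR score of 1000 was reached at 32 of the 36 (88.9%), against 78.5% of all genes with a promoter peak.

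The summits sat close to the 5′ ends. The median position was +9 bp (+19 bp over all genes), and 30 of the 36 strongest summits (83.3%) lay within 250 bp, against 75.3%. Of the 36, 18 (50%) lay upstream of the 5′ end, against 42.2% of all genes with a promoter peak. In 12 of the 36 (33.3%) the summit was also within 1 kb of another gene's 5′ end, against 23.0% of all genes with a promoter peak. In these 12 the peak cannot be assigned to the replication gene rather than to its neighbour.

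**Figure D4:**
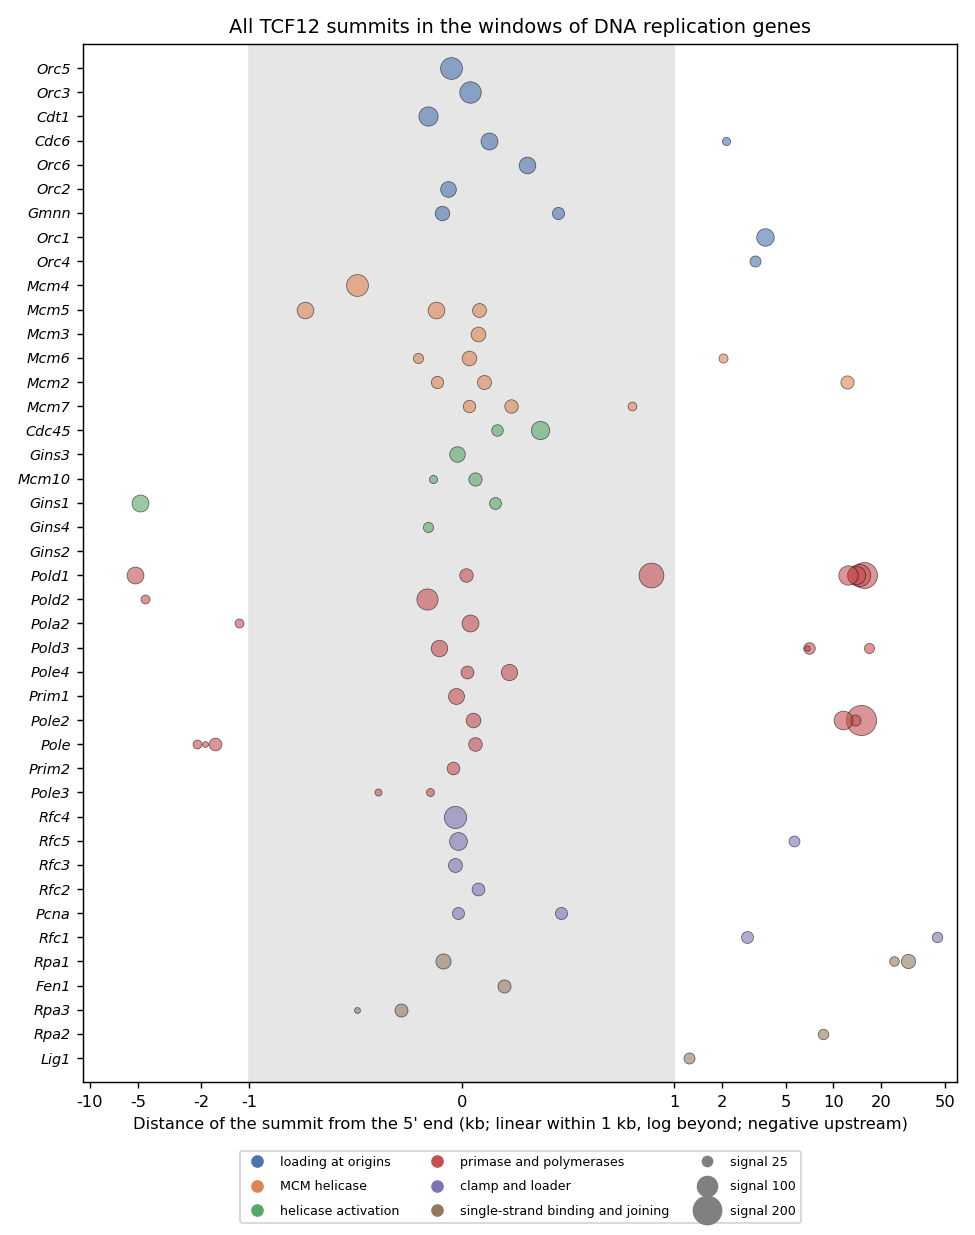
All 79 summits in the windows of the 42 genes by distance from the 5′ end (kb, linear within 1 kb and logarithmic beyond, negative upstream). Circle area follows the signal and the grey band marks the 1 kb limit. In all, 50 summits lie in the band, 7 upstream of it and 22 in gene bodies, where the strongest are those of Pold1 and Pole2.

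Outside promoters there were 29 summits with a median signal of 31.5, and 13 of them passed the median of all optimal peaks, 35.0. The strongest of all peaks at a replication gene was here and not at a promoter. Pole2, a subunit of polymerase epsilon, had a summit at +14.8 kb (mm10 chr12:69213283-69213542) with a signal of 232 (138 and 92.7 in replicates 1 and 2). A second summit at +11.4 kb had 90.6 (59.1 and 31.2). The promoter of Pole2 reached only 54.7. The nearest 5′ end of another gene to the stronger summit was that of Dnaaf2, at 13.3 kb.

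Pold1 had 5 summits outside its promoter, all above the median of all peaks. In its gene body they lay at +15.7 kb with 173 (122 and 55.7), +14.5 kb with 128 (88.5 and 36.6), +13.9 kb with 86.3 (64.7 and 21.6) and +12.4 kb with 96.3 (63.1 and 34.9). These 4 lay between 1.07 and 4.33 kb from the 5′ end of Spib, the gene of an ETS factor of B cells. The summit 5250 bp upstream had 73.3 (36.2 and 42.2) and lay 97 bp from the 5′ end of Nr1h2. The other summits above the median and not given so far were at Rpa1 (+29.4 kb, 52.4, with 36.1 and 13.7) and 1644 bp upstream of Pole (42.1, with 18.9 and 23.4).

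The letters under these gene body summits were read on mm9. All 4 gene body peaks of Pold1 held CAGCTG or CACCTG within 50 bp of the summit, and so did the strongest peak of Pole2, while its other gene body peaks did not. They are shown because they belong to the strongest gene body peaks of the replication genes, and were chosen after their values were seen. Capitals mark the E-box, on the plus strand, and CAGGTG is CACCTG read on the other strand.
Pold1 (chr7:51788519-51788548, intron): agtgaggtcccaCAGCTGggtcaggagtct
Pold1 (chr7:51789729-51789758, exon): aggggcccagccCAGGTGggcctgacctcc
Pold1 (chr7:51790223-51790252, intron): cacaggcagtcaCAGCTGccagcctgattt
Pold1 (chr7:51791841-51791870, intron): gaggtcatgggaCAGCTGaggaagccacat
Pole2 (chr12:70314424-70314453, intron): tatgcaaactaaCACCTGgacagtctttcc
Of the 22 mm9 peaks more than 1 kb from the 5′ end of their own replication gene, 9 held a main E-box. Of 15487 peaks outside the promoters of all genes, 39.6% did. The 22 could still lie at another gene's promoter, or at their own gene's where the annotated 5′ end differs between builds. They included peaks of Pole4 at +52.6 and +52.4 kb and of Gins1 at +4.31 kb, without a main E-box. On mm10, Pole4 had promoter summits at +225 and +25 bp, and Gins1 had 1 at +155 bp. Among the 22 was also the Pold1 peak 5199 bp upstream, without a main E-box, whose mm10 summit lay 97 bp from the 5′ end of Nr1h2. The shares thus come from differently defined sets, and a difference from the background was not tested.

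Motifs around the promoter summit were counted on mm9, where 37 of the 42 genes had a promoter peak, against 35.2% of 22350 genes. By the mm9 annotation, Lig1, Mcm4, Orc4, Pcna and Pole4 had none and are not in these counts. Orc1, Gins2, Rfc1 and Rpa2, without one on mm10, are in them. The mm9 peaks of Pole4 included 70.4 at +52.6 kb and 54.2 at +52.4 kb. Its mm10 promoter summits lay at +225 and +25 bp, with signals of 68.1 and 42.0. Its lack of an mm9 promoter peak is thus by the mm9 annotated 5′ end. Whether these are the same peaks was not tested. E2F matches (TTTCGCGC, TTTGGCGC, TTTCCCGC or TTTGCCGC, both strands) were found no more than 50 bp from the summit in 11 of the 37 (29.7%, Wilson interval 17.5 to 45.8), against 1.87% of 7867 genes with a promoter peak. The 11 were Cdc6, Orc1, Mcm2, Mcm3, Mcm5, Mcm7, Gins2, Gins3, Pole, Pole2 and Rfc3. They thus came from loading, helicase, activation, polymerase and loader genes, and none from single-strand binding and joining.

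The main E-boxes were near the background at the same summits. CAGCTG or CACCTG lay within 50 bp in 7 of the 37 (18.9%, interval 9.48 to 34.2), against 13.7%. These were Cdc6, Mcm2, Mcm6, Orc1, Pola2 and Rpa1 with CAGCTG, and Pold1 with CACCTG. The first of the words, CAGCTG, was in 6 (16.2%), against 7.32%, and CACCTG in 1 (2.70%), against 7.02%. Any CANNTG was found in 13 (35.1%), against 28.6%, and CACGTG, which is included in it, in 3 (8.11%), against 5.15%.

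The other motifs listed were less far from the background than the E2F matches. CCAAT, the box of NFY, lay near the summit in 7 of the 37 (18.9%), against 11.2%. The ETS motif CCGGAAGT was in 6 (16.2%), against 7.77%, and its shorter core CCGGAA in 11 (29.7%), against 22.9%. TGACGT, of CREB, was in 4 (10.8%), against 6.91%, and GGGCGG, of SP and KLF factors, in 10 (27.0%), against 34.0%. The YY1 motif was in 1 (Mcm5), against 3.56%, and the NRF1 motif with a free middle base in 2, against 6.64%. The stricter NRF1 motif was in none, against 1.12%, and the cell cycle element CHR (TTTGAA or TTCGAA) in none (interval 0 to 9.41%), against 2.85%.

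The same motifs were counted in RefSeq promoters, 300 bp from 250 before to 50 after the first listed start, for the 34 genes with an entry. Mcm4, Gins1, Gins2, Gins4, Rfc2, Pole, Gmnn and Prim2 were not matched in that table and are not in these counts. E2F matches were in 14 of the 34 (41.2%, interval 26.4 to 57.8), against 2.95% of all 17274 promoters and 4.83% of the 7075 whose gene had a promoter peak. CCAAT was in 19 (55.9%), against 39.4% and 40.2%, and CCGGAAGT in 9 (26.5%), against 5.35% and 10.5%. TGACGT was in 8 (23.5%), against 8.86% and 13.5%.

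CAGCTG or CACCTG was in 8 of these 34 promoters (23.5%), against 31.5% of all and 27.7% of those with a peak. GGGCGG was in 24 (70.6%), against 46.9% and 67.5%, and CHR in 6 (17.6%), against 17.7% and 14.0%. The promoters held a median of 23.5 CpG pairs, against 14.0 over all promoters and 22.0 over those with a peak. In base composition the replication promoters were thus near other promoters with a TCF12 peak, and the E2F share stood furthest from both backgrounds.

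**Figure D5:**
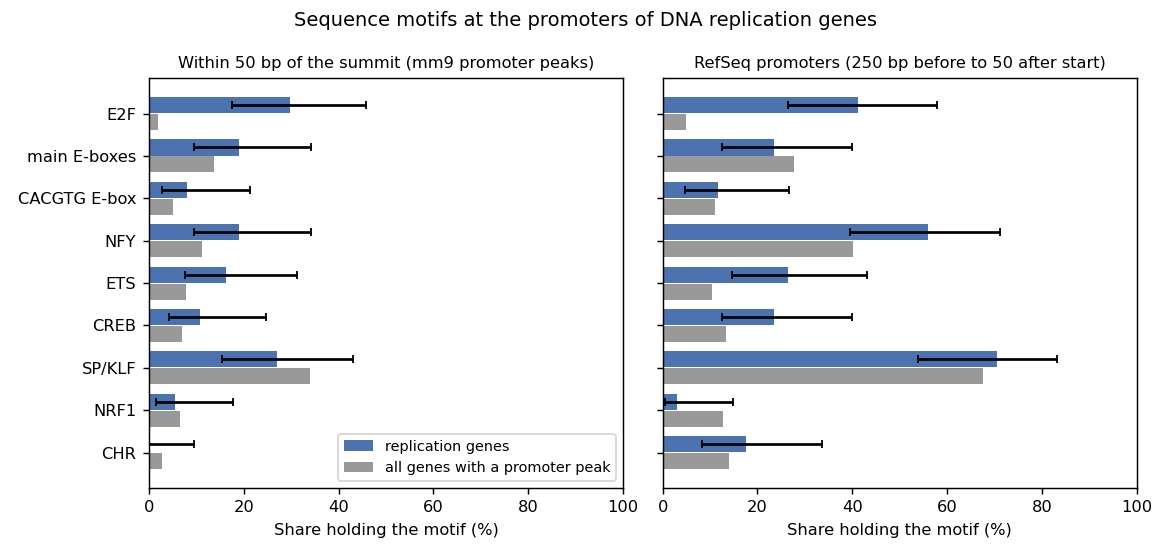
Percentage of genes holding each motif, within 50 bp of the mm9 promoter summit (left) and in the RefSeq promoter (right). Blue bars are replication machinery genes with 95% Wilson intervals, grey bars all genes with a promoter peak. E2F stands at 29.7% against 1.87% on the left and 41.2% against 4.83% on the right, while the main E-boxes lie near the grey bars in both.

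Of 38 other genes of replication and S phase, such as the kinase gene Cdc7, checkpoint mediators, histone chaperones and nucleotide synthesis enzymes, 37 had a promoter peak (97.4%), against 40.6% of all genes. Their median signal was 52.8. The strongest were Mtbp, with 122 (60.4 and 64.8, shared with Mrpl13), Topbp1, with 104 (63.5 and 53.3), and Top2a, with 92.8 (43.7 and 44.4). MTBP and TOPBP1 act in helicase activation, and TOP2A untangles DNA. Timeless, of the fork protection complex, had no optimal peak in its window, and the conservative list held one at +226 bp with a signal of 47.0 (12.8 and 13.0). E2F matches were in 6 of the 31 with a RefSeq promoter (19.4%), against 2.95% of all promoters.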

How the data were processed

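ChIP-seq peaks of TCF12 in 2 biological replicates of CH12.LX were used as deposited, in 1 group. Per the file headers in the deposited descriptions, the authors called relaxed peaks per replicate against a control alignment and derived optimal and conservative IDR lists on mm10, and a separate list on mm9. The aligner, the caller and its scaling were not given in the sources used here. Signal is the authors' caller value and score is the authors' scaled IDR score. Both replicates came from the same line, so their spread may be partly technical. The control reads were not analysed here.

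Gene ends came from RefSeq (GRCm38.p6), with strand for 21318 of 21631 genes: 17274 from the RefSeq promoter table and 4044 by GENCODE vM1 symbol or synonym. Replicate values are those of the overlapping peak (at least 1 bp) with the nearest summit. Counting and motif search were tested on simulated data, in Python 3.11.15 with pandas 2.3.3. No test was run, as there is no second group. Wilson intervals are at 95%.

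The genes and lists were chosen with earlier results of these data known. Every gene is named. Full values are given for the 12 strongest promoter peaks, genes without one, genes nearest the 1 kb limit, peaks outside promoters above the median of all peaks, and, of the other replication genes, the 3 strongest and those without a peak. Sequence was printed for up to 6 of the 12. Alternatives were a stricter IDR score, the conservative list, each replicate alone, other starts and distances, other windows and peak overlap. Each replicate alone means the strongest 35530 of its 300000 peaks, a number set to the size of the conservative list.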

Additional observations from a re-analysis of the deposited data

How the results depend on the processing

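Of 62 alternative values of the main results, 50 were labelled unchanged. For a count this meant staying within 1.5 times the main count. A median signal or position had to move by less than 1 SD between the values of the replicates alone. The median replicate ratio had to move by less than 1 SD of the ratio over the genes. Genes with a promoter peak ranged from 33 with an IDR score of at least 830 (35.8% of all genes) to 40 with all RefSeq starts (43.3%), and were 36 and 37 in each replicate alone (41.4% of all genes in both). In all, 33 genes had a promoter peak under every alternative that used the gene's outermost 5′ end on mm10. With the mm9 list and its annotation, an alternative chosen after seeing the data, it was 37. With the IDR score of at least 830, 11 genes (26.2%) had a further peak outside the promoter, below the 28.5% of all genes, and with all RefSeq starts 14 did (33.3% against 33.6%), whereas the main share lay above that of all genes. The cause was not tested. The median signal was 25.3 to 37.6 in the replicates alone, against 22.3 and 33.6 over all genes, and the scale of these lists against the optimal list was not given. The median summit position changed sign, within the quartiles of the genes (-88.5 and 109.5 bp): -18 bp with an IDR score of at least 830, 35 bp with the conservative list, -24.5 bp with all RefSeq starts, 0.5 bp and 36 bp with a limit of 500 bp and 2 kb, and 20 to 24 bp in the replicates alone. Within 25 bp of the summit, main E-boxes were in 3 genes (7.02% of all genes with a promoter peak) and E2F matches in 5 (0.877%). Signal was not divided by depth here, since depth was unknown. No paired analysis was possible because there was 1 group.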
